A study of Bos taurus with 18 samples.

Results

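The nuclear-coded subunits of the respiratory chain and ATP synthase were followed in MAC-T, an immortalised bovine cell line from mammary epithelium. Members were all genes of the count table whose symbol starts with NDUFA, NDUFB, NDUFC, NDUFS, NDUFV, UQCR, COX4 to COX8 or ATP5, together with SDHA, SDHB, SDHC, SDHD and CYC1. The rule used names only and found 95 of the 30642 genes in the table. Of these, 91 had enough reads to be tested. The tested genes comprised 37 subunits of complex I, 4 of complex II, 9 of complex III, 14 of complex IV and 17 of complex V. They also included 8 complex I assembly factors (the NDUFAF genes, which share the NDUFA prefix) and 2 genes named for ATP synthase that are not among its subunits (the inhibitor ATP5IF1 and the regulator ATP5S). NDUFA4 was counted with complex IV, where its protein is now placed.

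Poly-A RNA was sequenced from 6 groups of 3 libraries, all from the same cell line. Undifferentiated cells were unheated (NHSUD) or heated (HSUD) and stayed in a basal medium with 10% serum, hydrocortisone at 1 µg/ml and insulin at 5 µg/ml. The differentiated cells were unheated (NHSD), heated (HSD), or heated and then returned to 37 °C for 2 h (D2R) or 6 h (D6R). Their lactogenic medium was the basal medium with a further 5% serum, 5 µg/ml prolactin and 10 µg/ml dexamethasone. Every group was cultured for 4 days at 37 °C, and heat was 42 °C for 1 h on the fourth day. Each culture run held unheated, heated and recovery groups on separate plates, so heat and recovery cannot be told apart from the plate. RNA from 2 technical replicates was pooled for each library, and the experiment was repeated 3 times. The replicate numbers paired the libraries across groups and are called runs 1 to 3 here. These are repeats of 1 cell line, so the p-values measure the spread between repeats and not between animals.

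Complexes I to IV of the inner mitochondrial membrane pass electrons from NADH and succinate to oxygen, and complexes I, III and IV pump protons while doing so. Complex V, the ATP synthase, lets the protons flow back and makes ATP. A few catalytic and membrane core subunits are coded in mitochondrial DNA, while most subunits, including the many small accessory ones, are coded in the nucleus. Mammary epithelial cells draw on this system for the ATP that milk synthesis and secretion require.

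Libraries held 40.9 M to 61.2 M counts, of which the 95 members took 1.37% to 1.90%. The lowest share was that of NHSD in run 3 and the highest that of HSUD in run 1. All 8 epithelial markers (KRT8, KRT18, KRT5, KRT14, EPCAM, CDH1, KRT7 and KRT19) were present in every library, with a summed level of 14254 to 25439 CPM (counts scaled to a common library total). Of 6 fibroblast markers, COL1A1 and COL1A2 stayed at or below 0.347 CPM, whereas DCN reached 417 to 813 CPM and PDGFRA 5.85 to 12.7 CPM. Summed marker levels were at most 7.64 CPM for muscle, 7.48 CPM for adipocytes, 1.98 CPM for leukocytes and 0.355 CPM for endothelium. In such bulk samples, fewer cells of a type and less RNA per cell cannot be told apart. Levels below are CPM after scaling by edgeR's TMM factors and are not corrected for transcript length, so they compare libraries and not genes.

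The subunits of all 5 complexes shared a pattern over the libraries, with run 1 above the other runs in most groups. The median deviation of the 91 genes from their own means over the 18 libraries, on the log2 CPM scale, was 0.20, -0.15 and -0.11 in NHSUD (runs 1, 2 and 3). It was 0.16, -0.23 and -0.27 in NHSD and 0.51, -0.16 and 0.23 in HSUD. Run 1 was thus the highest in each of these groups, and HSUD had the widest spread. The deviations were 0.16, 0.0098 and 0.047 in HSD, 0.055, 0.040 and -0.11 in D2R, and 0.031, -0.23 and -0.20 in D6R. In all 18 libraries the median deviation of all tested genes stayed between -0.027 and 0.019.

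**Figure D1:**
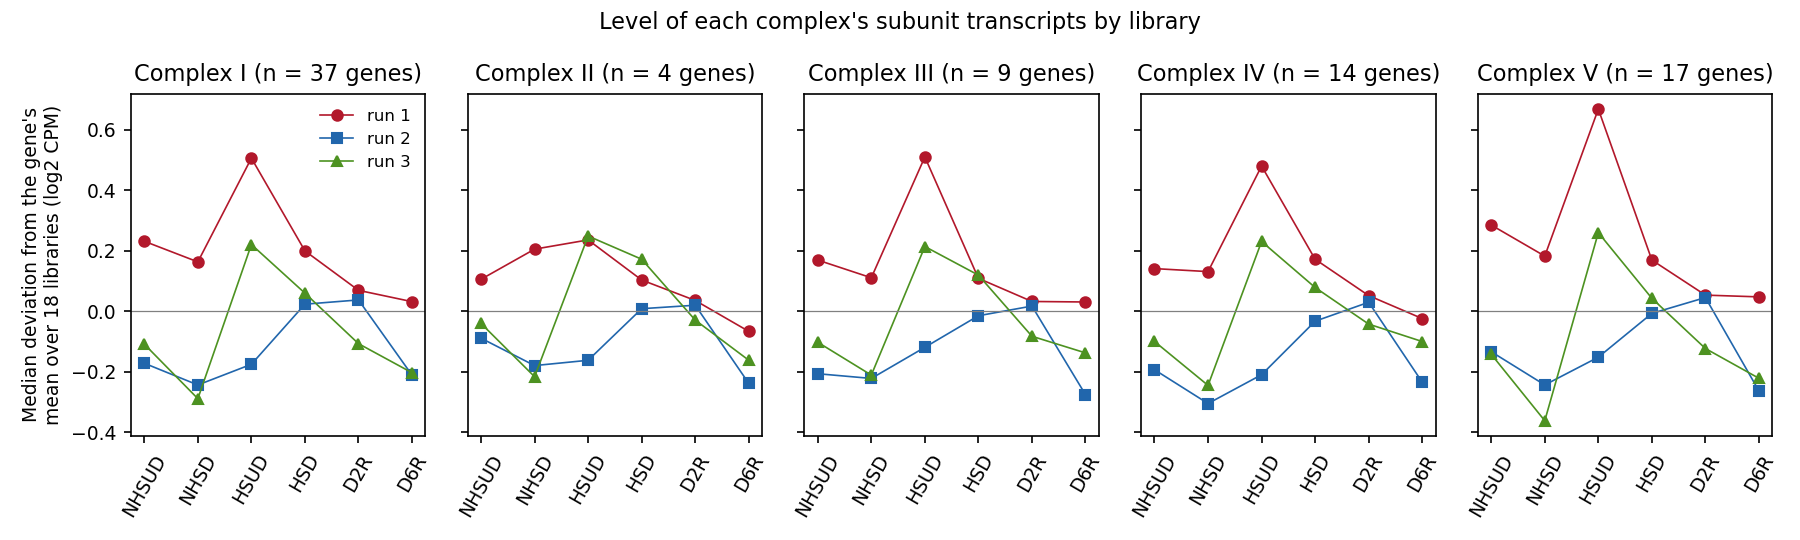
Median deviation of each complex's tested subunits from their own mean over 18 libraries (y axis, log2 CPM), by group (x axis), with 1 line per culture run. The 5 panels have similar shapes, with run 1 of HSUD highest in complexes I, III, IV and V (0.51, 0.51, 0.48 and 0.67), and run 2 low in both unheated groups.

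The only test that called members with all 18 libraries in the fit was that of the difference between runs. In a fit with group and run as terms, 70 of the 91 members (76.9%) differed between runs at an adjusted p under 0.05 (edgeR's quasi-likelihood F test, Benjamini-Hochberg over 15158 genes), against 53.6% of all tested genes. Run 1 was highest for 64 of the 70, and for 2868 of the 8132 genes called among all tested. Those 2868 were 18.9% of all tested genes. Without the NHSD library of run 1, 58 members were called. By complex, the test called 31 of 37 in complex I, 2 of 4 in complex II, 8 of 9 in complex III, 8 of 14 in complex IV and 13 of 17 in complex V. Of the assembly factors 6 of 8 were called, as were both complex V regulators. The median difference of run 2 from run 1 was -0.28 over the members and 0.021 over all genes, and that of run 3 from run 1 was -0.26 and 0.019.

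The member with the smallest adjusted p was UQCRQ, a small accessory subunit of complex III. Its level was 221, 137 and 138 CPM in NHSUD (runs 1, 2 and 3), 201, 141 and 121 in NHSD, and 321, 155 and 179 in HSUD. It was 228, 173 and 147 CPM in HSD, 188, 185 and 133 in D2R, and 195, 135 and 127 in D6R. Run 1 was the highest in all 6 groups. UQCRQ fell by 0.53 in run 2 and by 0.67 in run 3 relative to run 1 on the log2 scale (adjusted p = 7.4e-06, edgeR). In 29 of the 91 members (31.9%) run 1 was the highest in all 6 groups, against 6.42% of all genes. COX7C, a small subunit of complex IV, differed by -0.63 and -0.57 (adjusted p = 3.0e-05). The spans between highest and lowest run were largest in NDUFAF2, a complex I assembly factor (0.70), UQCRQ (0.67) and COX4I2 (0.67). COX4I2 is a low, alternative form of a complex IV subunit with 10 to 44 reads per library, and it was not called (adjusted p = 0.16, edgeR).

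SDHA, the flavoprotein of complex II that oxidises succinate, had the smallest span between runs, 0.044 (adjusted p = 0.84, edgeR). ATP5F1B, the catalytic beta subunit of ATP synthase, had a span of 0.054 (adjusted p = 0.79) and NDUFAB1, the mitochondrial acyl carrier protein, one of 0.080 (adjusted p = 0.55). NDUFV3, an accessory subunit of the NADH-binding module, ran the other way. It was lowest in run 1, by 0.26 against run 2 and 0.24 against run 3 (adjusted p = 0.0040). NDUFS1 and UQCRC1, core subunits of complexes I and III, were highest in run 3 (adjusted p = 0.00036 and 0.013).

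The run difference was called for a larger share of the accessory subunits than of the cores. In complex I, 26 of 30 accessory and 5 of 7 core subunits were called, and in complex III all 5 accessory subunits and 3 of 4 cores. In complex V, all 5 membrane accessory subunits and all 4 stator subunits were called. Of the F1 part (catalytic head and central stalk) 2 of 5 were called, ATP5F1C and ATP5F1E, as were 2 of 3 c-ring genes. Whether these shares differ between subunit classes was not tested. The 77 tested genes of cytosolic ribosomal proteins, a list chosen after earlier results were known, had 69 called, 62 of them with run 1 highest. All 8 epithelial markers also differed between runs, 3 with run 1 and 5 with run 3 highest, and their summed level was 15754 to 20429 CPM in run 1, 14254 to 19847 in run 2 and 18764 to 25439 in run 3. All 4 tested fibroblast markers differed too, 1 with run 1, 1 with run 2 and 2 with run 3 highest. The summed level of the fibroblast list, most of it DCN, was 621 to 820.2 CPM in run 3 against 427 to 617 in the other runs. The part of either marker list in the members' differences was not tested.

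**Figure D2:**
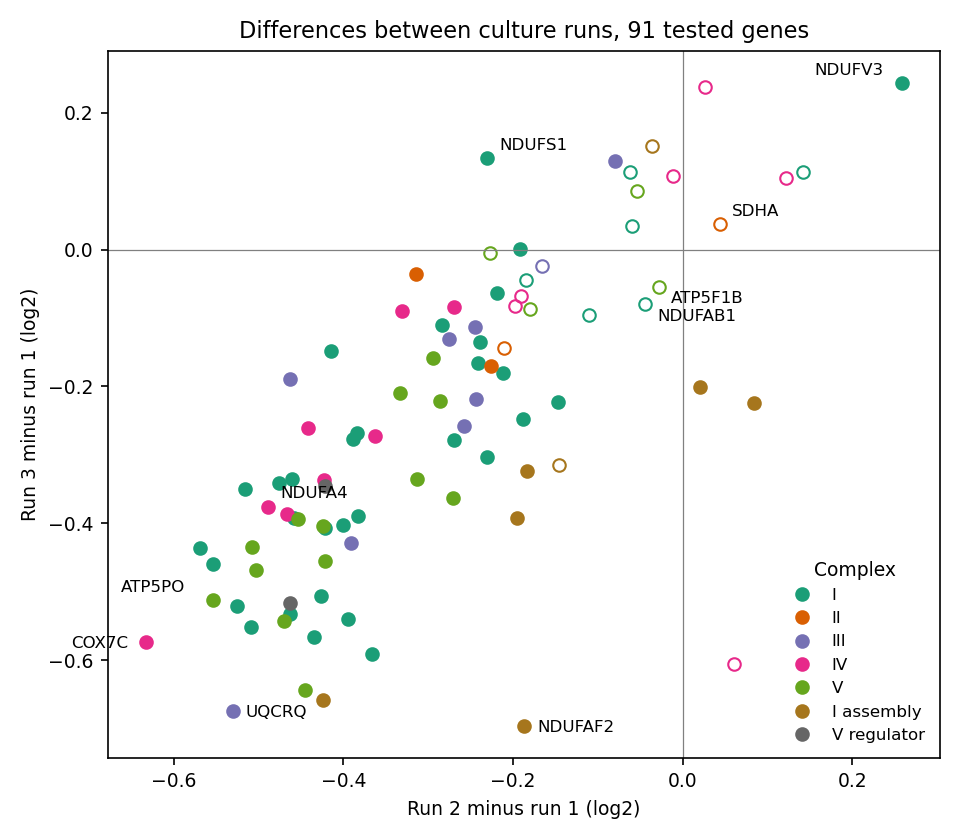
Difference of run 2 (x axis) and of run 3 (y axis) from run 1 for the 91 tested genes, as log2 coefficients of the fit with group and run, coloured by complex. Filled points passed the test (70 of 91). Most points lie in the lower left, with SDHA and ATP5F1B near 0 and NDUFV3 alone among the filled points in the upper right.

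The unheated groups compared the lactogenic with the basal medium. Most members had slightly lower estimates in NHSD than in NHSUD. Only 14 of 91 estimates were positive, against 49.8% of all genes, with a median of -0.092 against -0.00088 for all genes. Every complex had a negative median, -0.073 in complex I, -0.054 in II, -0.10 in III, -0.089 in IV and -0.10 in V. The edgeR quasi-likelihood test called 0 members (0% of all genes), with 1 member at an unadjusted p under 0.05 (1.67% of all genes) and 1 in DESeq2, which called 0 too. That member was NDUFV1, the flavin-binding core subunit of complex I. Its level was 311, 269 and 297 CPM in NHSUD and 269.5, 241 and 230.4 in NHSD, which gave an estimate of -0.24 ± 0.11 (SE, adjusted p = 1.0). The assembly factor NDUFAF6 had the highest estimate of the members with at least 5 CPM, 0.19 ± 0.17. No tested member was higher in all NHSD libraries than in every NHSUD library (3.44% of all genes). The tested members lower without overlap were NDUFAB1 and NDUFS7, a core subunit of complex I (2.31% of all genes). The median moved to 0.035 without the NHSUD library of run 1 and to -0.25 without the NHSD library of run 1.

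Heat in undifferentiated cells went with higher estimates in nearly all members, but none passed the test. HSUD exceeded NHSUD in 86 of 91 estimates, against 51.9% of all genes. The median log2 fold change was 0.24, against 0.011 for all genes. The medians were 0.24 in complex I, 0.14 in II, 0.25 in III, 0.27 in IV and 0.26 in V. The edgeR test called 0 members (0.125% of all genes), with 3 members at an unadjusted p under 0.05 (4.21% of all genes) and 4 in DESeq2, which called 0 too. Scaling by library size alone moved the median of all genes to -0.091 and that of the members to 0.13. Scaling shifts all genes of a library alike, so it cannot test the distance between these medians.

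The higher values were those of runs 1 and 3, with no such median difference in run 2. The median over members of the within-run difference was 0.30 in run 1, 0.00051 in run 2 and 0.34 in run 3. In 42 of the 91 members the difference was positive in all 3 runs, as it was in 2690 of the 15158 tested genes. UQCR11, a small accessory subunit of complex III, had the lowest p of the members, with 135, 101 and 116 CPM in NHSUD and 188, 126 and 162 in HSUD. Each run was higher after heat, although the groups overlapped. Its log2 fold change was 0.43 ± 0.16 (SE, adjusted p = 0.87, edgeR). NDUFB1, a membrane-arm subunit of complex I, had the highest estimate, 0.60 ± 0.29, with 45.1, 26.4 and 27.3 CPM before and 69.8, 33.8 and 46.1 CPM after heat. NDUFS5, a small intermembrane-space subunit of complex I, was at 107, 72.7 and 78.8 CPM in NHSUD and at 167, 78.7 and 112 CPM in HSUD. NDUFV3 had the lowest estimate of the members with at least 5 CPM, -0.055 ± 0.14. Without overlap between the groups, NDUFAF6 was higher in HSUD (3.99% of all genes) and COX7A1 lower (3.63% of all genes).

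With the run as a block, 46 of 91 members had an unadjusted p under 0.05, all with higher values after heat, against 12.6% of all genes. Still, 0 passed the adjusted threshold (0.633% of all genes), and the lowest adjusted p was 0.077, for NDUFS5 (0.44 ± 0.11, SE). The HSUD library of run 2 decided this count. No label marks that library as deviant. Run 2 was the run without a median difference, so leaving that library out was bound to raise the members' estimates. Without it, and with the block, 39 members were called (4.84% of all genes), all 39 higher. They were 15 of complex I, 0 of II, 4 of III, 7 of IV and 11 of V, with 1 assembly factor and 1 regulator, and their estimates ran from 0.33 to 0.80. NDUFS5 was then at 0.59 ± 0.089. ATP5F1E, the epsilon subunit of the F1 part, was at 0.57 ± 0.10. COX7A2, the widely expressed form of a small complex IV subunit, was at 0.56 ± 0.11. These calls depend on leaving out a library whose values were known, so they are not a test of heat. Leaving out any other single library of the pair, with or without the block, gave 0 calls. Without a block, the median over members was 0.058 without the HSUD library of run 1 and 0.38 without that of run 2.

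Accessory subunits had higher median estimates than cores in this comparison. The median was 0.27 over 30 accessory and 0.15 over 7 core subunits of complex I, and 0.33 over 5 accessory and 0.098 over 4 core subunits of complex III. In complex V it was 0.39 over the membrane accessory subunits, 0.29 over the stator, 0.22 over the c-ring genes and 0.13 over the F1 part. The ribosomal protein genes had a median of 0.33, with 77 of 77 estimates positive and run medians of 0.43, 0.0066 and 0.47. They thus followed the members by run, and neither this nor the difference between subunit classes was tested.

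NDUFA4, SDHA and ATP5PO, subunits of complexes IV, II and V, were followed singly. NDUFA4 was at 192, 129 and 139 CPM in NHSUD and at 272, 129.5 and 184 CPM in HSUD (runs 1, 2 and 3). Its log2 fold change was 0.35 ± 0.22 (SE, adjusted p = 1.0, edgeR), with no difference visible in run 2. With the run as a block it was 0.33 ± 0.12 (adjusted p = 0.27, edgeR). ATP5PO, the stator subunit that confers oligomycin sensitivity, was at 282, 194 and 183 CPM before and at 412, 180.2 and 239 CPM after heat. Its estimate was 0.34 ± 0.26 (adjusted p = 1.0), and 0.30 ± 0.12 with the run as a block (adjusted p = 0.34, edgeR). SDHA was at 323, 341 and 391 CPM in NHSUD and at 344, 364 and 328 CPM in HSUD, with an estimate of -0.025 ± 0.11 (adjusted p = 1.0). With the run as a block the estimate of SDHA was -0.024 ± 0.099 (adjusted p = 0.95, edgeR). In the other groups SDHA stayed between 289 and 358 CPM, and its coefficient of variation over the 18 libraries was the lowest of the members with at least 5 CPM, 8.50%. The highest belonged to ATP5ME, a membrane accessory subunit of ATP synthase, at 30.4%. The other complex II subunits, SDHB, SDHC and SDHD, ranged from 196 to 291, from 151 to 240.0 and from 91.0 to 134 CPM over all libraries. Unlike SDHA, all of them had higher group means after heat in both media, though none was called. Within runs, all of them were lower after heat in run 2 of undifferentiated and in run 1 of differentiated cells. Mean SDHB went from 232 to 259 CPM in undifferentiated and from 225 to 255 CPM in differentiated cells. Mean SDHC went from 185 to 208 and from 177 to 206 CPM, and mean SDHD from 110 to 119 and from 108 to 120 CPM.

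**Figure D3:**
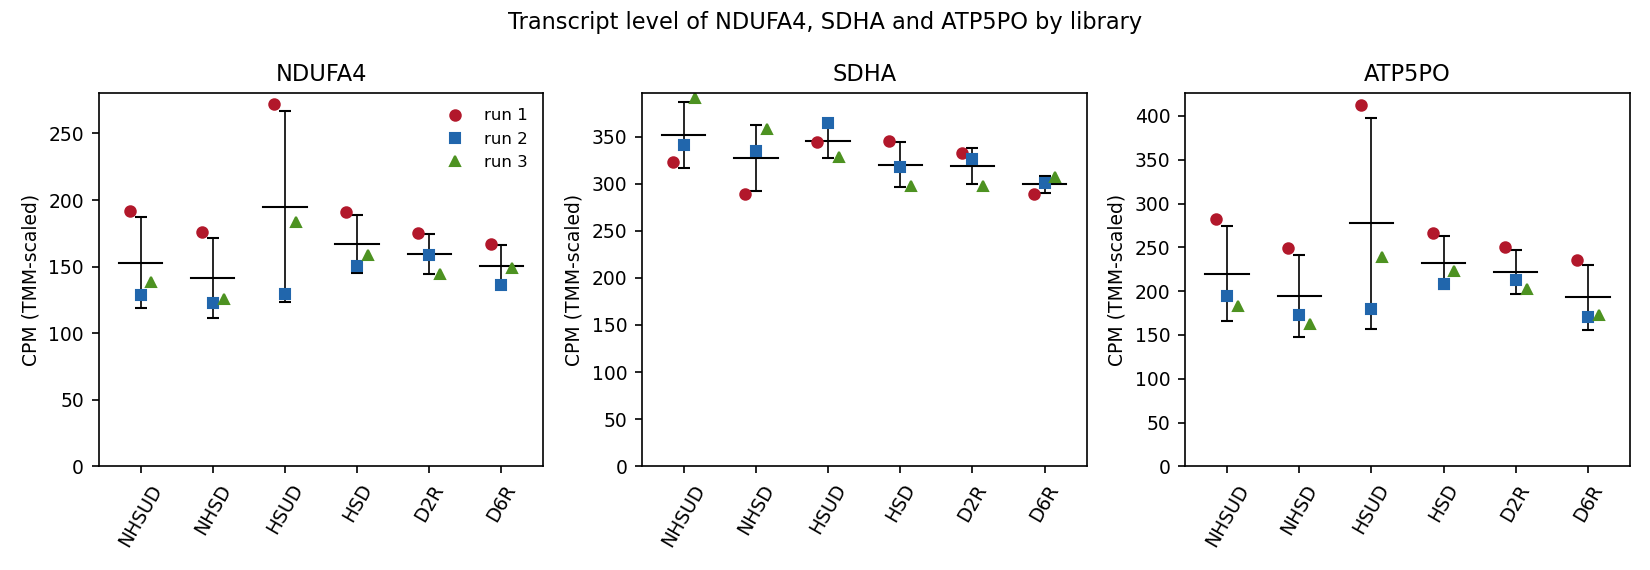
TMM-scaled CPM (y axis, from 0) of NDUFA4, SDHA and ATP5PO in each library, by group (x axis), with colours and symbols for the run, bars at the mean and error bars of 1 SD (n = 3). NDUFA4 and ATP5PO peak in run 1 of HSUD (272 and 412 CPM), and SDHA varies little.

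Heat in differentiated cells gave a similar set of estimates. HSD exceeded NHSD in 83 of 91 members, against 49.6% of all genes, with a median of 0.18 against -0.0025. The medians were 0.18 in complex I, 0.17 in II, 0.21 in III, 0.22 in IV and 0.17 in V. The edgeR test called 0 members (0.099% of all genes), with 2 at an unadjusted p under 0.05 (4.42% of all genes) and 2 in DESeq2, which also called 0. With the run as a block, 25 members were under an unadjusted p of 0.05, 24 of them higher after heat, against 12.1% of all genes, and 0 passed the adjusted threshold (0.554% of all genes, lowest adjusted p = 0.24). The median was -0.0035 in run 1, 0.25 in run 2 and 0.33 in run 3, so here run 1 was the one without a higher median. Over all runs the median was 0.10 without the NHSD library of run 3, 0.12 without that of run 2 and 0.36 without that of run 1. With library size alone the median over members was 0.10 and that of all genes -0.092.

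Members without overlap were few. COX7A2, NDUFAB1 and NDUFV1 were higher in every HSD library (3.75% of all genes), and COX7A1 was lower (4.14% of all genes). NDUFAB1 was at 54.9, 51.5 and 51.3 CPM in NHSD and at 60.8, 61.9 and 61.5 CPM in HSD, an estimate of 0.23 ± 0.11 (SE, adjusted p = 1.0, edgeR). COX7A2 was at 89.2, 70.8 and 67.2 CPM in NHSD and at 101, 89.6 and 92.7 CPM in HSD, an estimate of 0.32 ± 0.19. NDUFA1, a small membrane subunit of complex I, had the highest estimate, 0.33 ± 0.23, with 17.0, 12.6 and 11.8 CPM before and 20.1, 16.1 and 16.0 CPM after heat. The lowest among the members with at least 5 CPM was that of the assembly factor NDUFAF4, -0.086 ± 0.28. NDUFA4 had an estimate of 0.24 ± 0.22, ATP5PO one of 0.26 ± 0.26 and SDHA one of -0.032 ± 0.11. With the run as a block these were 0.25 ± 0.12, 0.28 ± 0.12 and -0.029 ± 0.099.

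The interaction term compared the effect of heat between the media. It called 0 members (0% of all genes) in edgeR and in DESeq2, with 0 at an unadjusted p under 0.05 in either (0.581% of all genes in edgeR). Of 91 estimates 25 were positive, against 43.1% of all genes. The median over members was -0.052, with run medians of -0.32, 0.23 and 0.013. The sign thus depended on the run. Without 1 library the median ran from -0.21 (HSUD of run 2) to 0.11 (HSUD of run 1). Among the members with at least 5 CPM, NDUFB1 had the lowest estimate, -0.51 ± 0.40 (SE), and ATP5S the highest, 0.17 ± 0.35.

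**Figure D4:**
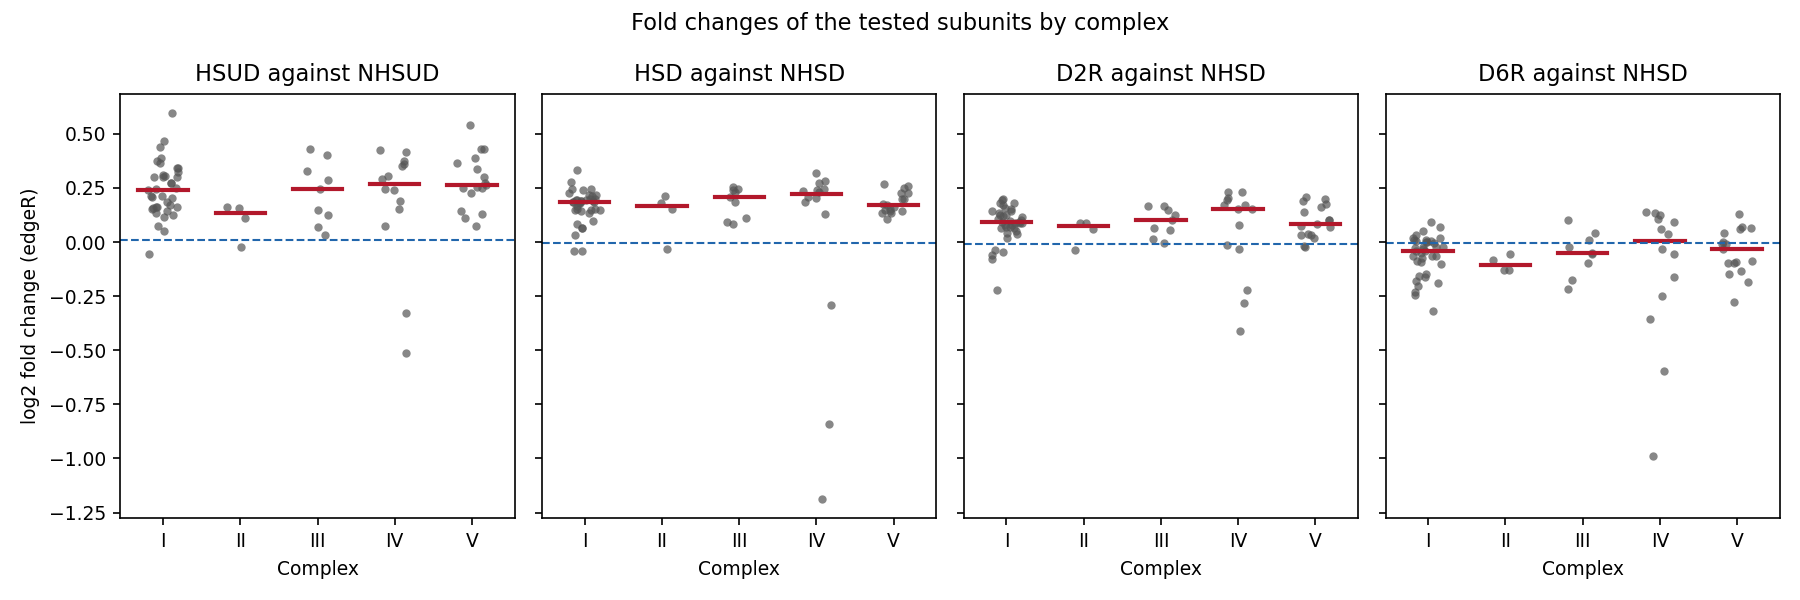
log2 fold change of each tested subunit (points) by complex (x axis) for heat in undifferentiated and in differentiated cells and for 2 h and 6 h of recovery, with the complex median (red bar) and the median of all tested genes (dashed line). The red bars lie above the dashed line in both heat panels (0.14 to 0.27 and 0.17 to 0.22) and between -0.11 and 0.0044 after 6 h. The lowest point of complex IV in every panel is COX7A1, which has few reads.

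The recovery groups were compared with the same NHSD libraries, so the estimates for HSD, D2R and D6R share their control. After 2 h, 75 of 91 members had positive estimates, against 48.8% of all genes, with a median of 0.089 against -0.0069 for all genes. Complex medians were 0.091 in I, 0.074 in II, 0.10 in III, 0.15 in IV and 0.082 in V. The edgeR test called 0 members (0.0792% of all genes), and 0 members had an unadjusted p under 0.05 in edgeR (3.08% of all genes) or DESeq2. The median was -0.099 in run 1, 0.29 in run 2 and 0.16 in run 3. Over all runs it was 0.017 without the NHSD library of run 3, 0.042 without that of run 2 and 0.26 without that of run 1. With the run as a block it was 0.0095 without the D2R library of run 2 and 0.19 without that of run 1. Among the members with at least 5 CPM, COX5B, a zinc-binding matrix subunit of complex IV, had the highest estimate, 0.23 ± 0.19, and NDUFA3, a small membrane subunit of complex I, the lowest, -0.22 ± 0.17. No tested member was without overlap in either direction (3.44% of all genes higher and 3.17% lower).

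After 6 h the estimates lay around those of unheated cells. Of 91 members 32 were positive, against 49.6% of all genes, with a median of -0.040 against -0.0023 for all genes. Complex medians were -0.040 in I, -0.11 in II, -0.050 in III, 0.0044 in IV and -0.031 in V. The edgeR test called 0 members (0.0132% of all genes), with 2 at an unadjusted p under 0.05 (6.07% of all genes) and 2 in DESeq2, which called 0. The median was -0.17 in run 1, -0.0090 in run 2 and 0.070 in run 3. Over all runs it was 0.12 without the NHSD library of run 1 and -0.13 without the D6R library of run 1.

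After 6 h, 7 tested members were lower than every NHSD library (4.12% of all genes) and 0 higher (5.57%). They were ATP5F1D, COX7A1, NDUFA9, NDUFAF3, NDUFS3, NDUFS7 and UQCRFS1. ATP5F1D, the delta subunit in the central stalk of ATP synthase, was at 377, 308 and 319.9 CPM in NHSD and at 261, 278 and 292 CPM in D6R, an estimate of -0.28 ± 0.12 (SE, adjusted p = 0.78, edgeR). UQCRFS1, the Rieske iron-sulfur protein of complex III, was at 197, 173 and 182 CPM in NHSD and at 164, 154 and 169.8 CPM in D6R, an estimate of -0.18 ± 0.12. NDUFA3 had the lowest estimate of the members with at least 5 CPM, -0.32 ± 0.17 (adjusted p = 0.88), with 33.0, 25.7 and 29.2 CPM in NHSD and 19.7, 24.3 and 26.4 CPM in D6R. ATP5S had the highest, 0.17 ± 0.25.

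Between HSD and D2R, the first 2 h after heat, 10 of 91 members had positive estimates, against 47% of all genes, with a median of -0.080 against -0.014 for all genes. The edgeR test called 0 (0.0528% of all genes), with 0 at an unadjusted p under 0.05 (3.53% of all genes) and 1 in DESeq2, which called 0. Without 1 library the median ran from -0.13 (HSD of run 2) to -0.035 (D2R of run 3). COX7A1 was higher in D2R without overlap (5.05% of all genes), and COX4I1, COX8A, NDUFA1, NDUFA11 and UQCR10 were lower (3.98%). NDUFAF4 had the highest estimate of members with at least 5 CPM, 0.31 ± 0.28 (SE), and NDUFAF6 the lowest, -0.24 ± 0.17.

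From 2 h to 6 h of recovery, only 4 of 91 estimates were positive, against 50.8% of all genes, with a median of -0.14 against 0.0055 for all genes. Complex medians were -0.16 in I, -0.16 in II, -0.16 in III, -0.13 in IV and -0.13 in V. The edgeR test called 0 members (0% of all genes), with 0 at an unadjusted p under 0.05 (3.86% of all genes) and 2 in DESeq2, which called 0. The median was -0.051, -0.28 and -0.090 in runs 1, 2 and 3. Without 1 library it ran from -0.23 (D6R of run 1) to -0.092 (D6R of run 2). In D6R, 15 tested members were lower than in every D2R library (3.38% of all genes) and 0 higher (4.33%). That count was 4 with library size alone and 19 with DESeq2 size factors. Among the 15 were ATP5F1B, COX4I1, COX8A, NDUFS3, NDUFS7, NDUFV1 and UQCRFS1. ATP5F1B was at 973, 1093 and 965 CPM in D2R and at 897, 931 and 872 CPM in D6R, an estimate of -0.17 ± 0.12 (SE, adjusted p = 1.0). Among the members with at least 5 CPM the lowest estimate was that of NDUFAF4, -0.33 ± 0.28, and the highest that of NDUFAF1, another assembly factor, 0.14 ± 0.15.

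With the run as a block, the other 6 comparisons also gave 0 called members. The share of all genes called in that fit was 0.0066% for the medium, 0% for the interaction, 0.224% after 2 h, 1.45% after 6 h, 0.389% for the first 2 h after heat and 0% from 2 h to 6 h. Members at an unadjusted p under 0.05 numbered 4 for the medium (5.31% of all genes), 0 for the interaction (1.02%), 2 after 2 h (10.2%), 6 after 6 h (15.8%), 0 for the first 2 h after heat (8.85%) and 7 from 2 h to 6 h (11.9%). The 2 after 2 h had positive estimates, and the 4, 6 and 7 negative ones. Outside the heat comparisons, the members' shares thus stayed at or below those of all genes.

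Several complex IV subunits have a second, tissue-specific form, and in these cells the widely expressed forms carried nearly all the reads. COX4I1 had 26633 to 46014 reads per library and COX4I2, the form linked to low oxygen and the lung, 10 to 44. COX6A1 had 11867 to 20754 reads, and COX6A2, the heart and muscle form, 8 reads in all 18 libraries together. COX6B1 had 6873 to 13330 reads and COX6B2, the testis form, 14 to 120. COX7B had 5004 to 9910 reads and COX7B2 22 in all libraries together. COX8A had 9710 to 19381 reads and COX8B 4 in all. COX7A2 had 3166 to 5893 reads and COX7A2L, which links complexes III and IV, 9232 to 14670. COX7A1, the heart and muscle form, had 13 to 83. NDUFA4L2, the low-oxygen paralogue of NDUFA4, had 0 to 17 reads per library and lies over SHMT2 in the annotation. The 3 genes coding the same c-ring subunit, ATP5MC1, ATP5MC2 and ATP5MC3, were all well measured, at 119 to 249.9, 248 to 415 and 369 to 713 CPM. COX6A2, COX7B2, COX8B and NDUFA4L2 were not tested.

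COX7A1 was the member whose estimates ran most against the others after heat. Its level was 0.949, 0.900 and 0.871 CPM in NHSUD and 0.570, 0.834 and 0.493 in HSUD. In differentiated cells it was 0.779, 1.55 and 1.20 CPM in NHSD and 0.613, 0.263 and 0.676 in HSD. Both heated groups lay below their unheated group without overlap. It was 0.862, 0.774 and 1.02 CPM in D2R, above HSD, and 0.567, 0.673 and 0.538 CPM in D6R, below NHSD and D2R. The log2 fold changes were -0.51 ± 0.37 for heat in undifferentiated cells (SE, adjusted p = 1.0, edgeR) and -1.19 ± 0.37 in differentiated cells (adjusted p = 0.68, and 0.24 with the run as a block). After 6 h of recovery the estimate was -0.99 ± 0.37 (adjusted p = 0.75). None of these passed the test, and COX7A1 had only 13 to 83 reads per library. Of the other tested low paralogues, COX6B2 also had lower group means after heat in both media (1.25 to 0.994 and 1.28 to 0.711 CPM). COX4I2 had a higher mean after heat in undifferentiated cells and a lower mean in differentiated cells.

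**Figure D5:**
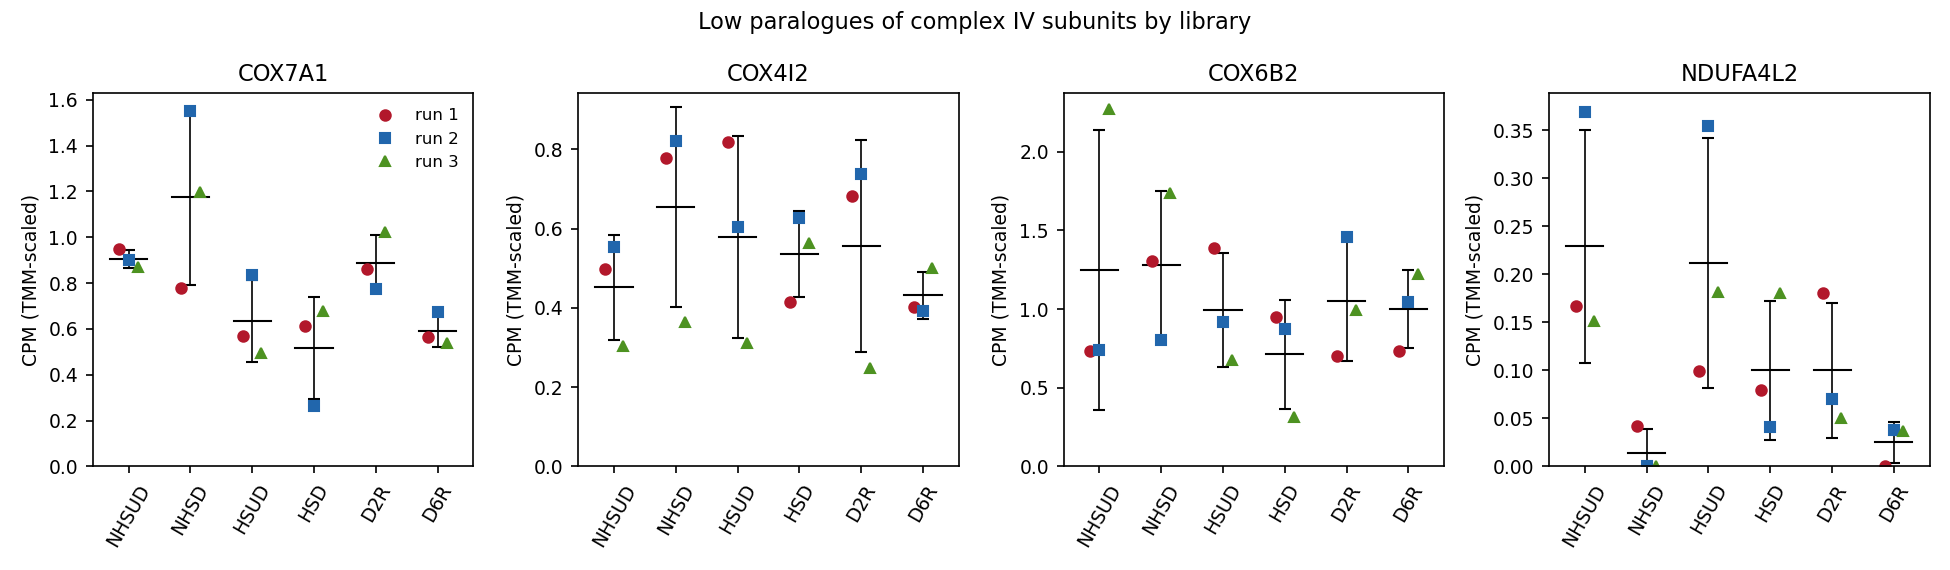
TMM-scaled CPM (y axes, from 0, with their own scales) of the low complex IV paralogues COX7A1, COX4I2, COX6B2 and NDUFA4L2 in each library, by group (x axis), with colours and symbols for the run, bars at the mean and error bars of 1 SD (n = 3). COX7A1 is at most 0.834 CPM in HSUD and HSD. NDUFA4L2 is at 0 to 0.042 CPM in NHSD and at 0.152 to 0.369 CPM in NHSUD, but it had only 0 to 17 reads per library and was not tested.

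The other genes of the pathway had smaller median estimates after heat. None of these lists had a gene called by the edgeR test without the block. In each comparison, at most 2 genes of a list had an unadjusted p under 0.05 in that fit. Of the assembly factors outside the naming rule, 40 were tested, with 32 positive estimates and a median of 0.17 for heat in undifferentiated cells and 29 positive with a median of 0.12 in differentiated cells. The 13 tricarboxylic acid cycle genes, which supply NADH and succinate, had medians of 0.034 and 0.073. The 12 genes of cytochrome c and coenzyme Q synthesis had medians of 0.094 and 0.019, and the 18 tested regulators of mitochondrial biogenesis 0.059 and 0.034. With the run as a block, 2 of these genes were called. They were SCO2 for the first 2 h after heat (0.389% of all genes) and TWNK after 6 h of recovery (1.45% of all genes). SCO2, a copper chaperone for complex IV, was at 24.1, 21.2 and 18.5 CPM in HSD and at 38.6, 31.7 and 27.0 in D2R, an estimate of 0.60 ± 0.11 (SE, adjusted p = 0.011, edgeR with the block, and 0.56 without). TWNK, the mitochondrial DNA helicase, was at 20.5, 23.9 and 24.0 CPM in NHSD and at 25.7, 34.1 and 35.8 in D6R, an estimate of 0.48 ± 0.12 (adjusted p = 0.041 with the block, and 0.52 without).

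The 13 subunits coded in mitochondrial DNA were measured in the same libraries. Their share of all counts was 1.79% to 3.44% per library, although poly-A selection recovers these short-tailed transcripts unevenly. The median estimate was -0.10 for heat in undifferentiated cells, with run medians of -0.38, -0.48 and 0.48. In differentiated cells it was 0.055, with run medians of -0.78, 0.26 and 0.62. After 6 h of recovery all 13 estimates were negative, with a median of -0.45 and run medians of -0.40, -0.47 and -0.51. ND3, a membrane core subunit of complex I, was at 362, 254 and 257 CPM in NHSD and at 193, 164 and 128 CPM in D6R. Its log2 fold change was -0.85 ± 0.20 (SE, adjusted p = 0.39, edgeR), and -0.86 ± 0.18 with the run as a block (adjusted p = 0.032, edgeR). This was the only call of the 13 in the group comparisons (1.45% of all genes were called after 6 h with the block). Only 2 of the 13 differed between runs, against 70 of the 91 nuclear-coded members and 53.6% of all tested genes. Few calls do not mean stable levels here. In HSD, for example, the median deviation of the 13 was -0.33, 0.27 and 0.56 (runs 1, 2 and 3). No test of the difference between the nuclear-coded and mitochondrially coded genes was made.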

How the data were processed

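The authors deposited raw gene-level read counts for 18 libraries. Per the submitters' processing notes, fastp 0.23.2, STAR 2.7.9a and featureCounts 2.0.3 were used with the bovine assembly ARS-UCD 1.3. Annotation and strand setting: not given in the sources used here. Among counts from 1 to 19, 72.1% were even, so mates may have been counted singly, and counting errors would then be understated. Of the 95 members, 29 overlap another gene in RefSeq (ARS-UCD 2.0), for example NDUFB2 with BRAF, and could share reads. Names were matched to RefSeq by symbol for 92 members and by older symbol for 3 (ATP5S among them). Coordinates were used only to find overlapping genes, and no lengths were used.

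Genes were filtered with edgeR 4.0.16 (filterByExpr, minimum count 10), which left 15158, scaled by TMM and modelled in R 4.3.3 with a mean for each group, all 18 libraries together. Contrasts were tested two-sided with the robust quasi-likelihood test and adjusted by Benjamini-Hochberg, with calls at an adjusted p under 0.05. The script was tested on simulated data. Estimates and SE are from the fit without the run as a block unless the block is named, so those SE include differences between runs. Within-run values are differences of log2(CPM + 0.5). The labels say the experiment was repeated, and deviations from group means correlated in 45 of 45 same-numbered pairs (0.19 to 0.78, median of other pairs -0.28), so the numbers paired the libraries. No library duplicated another. Alternatives were the run as a block, DESeq2 1.42.0, DESeq2 size factors, library size alone, other filters, the compared groups alone and leaving out libraries.

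Members and lists were chosen with earlier results of these data known. Named genes were NDUFA4, SDHA and ATP5PO, called members, the highest and lowest estimate in each contrast and the extremes of variation among members with at least 5 CPM, paralogue sets, the extremes of the run span, and members with too few reads. Members with the lowest p, members without overlap and other genes named for contrast were chosen after their values were seen.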

Additional observations from a re-analysis of the deposited data

How the results depend on the processing

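In all 8 contrasts between groups, 0 members were called with DESeq2, with either other scaling, with either other filter, with the compared groups alone, with the replicate block, and without any 1 library when no block was used. With the replicate block and 1 library left out, heat in undifferentiated cells gave 0 to 39 calls, the 39 without the HSUD library of run 2, and the other contrasts gave 0. The replicate block changed no call of a member with all libraries in the fit. The run difference was called for 69 to 73 members with other tools, scalings and the 5 CPM filter and for 58 to 73 without 1 library. These are counts only, and which members they held was not compared.

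Directions of small estimates depended on single libraries. Without 1 library, ATP5PO ranged from -0.17 to 0.21 after 6 h of recovery, from -0.067 to 0.56 for heat in undifferentiated cells and from -0.39 to 0.045 for the medium. ATP5S ranged from -0.073 to 0.36 after 6 h and from -0.075 to 0.46 in the interaction. NDUFA4 ranged from -0.30 to 0.081 for the medium, NDUFAF4 from -0.21 to 0.030 for heat in differentiated cells and NDUFV3 from -0.14 to 0.058 for heat in undifferentiated cells. SDHA ranged from -0.12 to 0.039 after 2 h, from -0.11 to 0.043 for heat in differentiated cells and from -0.081 to 0.058 in undifferentiated cells. With the replicate block and 1 library left out, the estimates that changed sign were ATP5PO after 6 h (0.034, 0.015 and 0.038), NDUFAF4 for heat in differentiated cells (0.0080) and NDUFV3 for heat in undifferentiated cells (0.0092). SDHA did so after 2 h (0.029 and 0.048), for heat in differentiated cells (0.038 and 0.052) and in undifferentiated cells (0.026 and 0.067). With library size alone the estimate of ATP5PO after 6 h was 0.031. The causes were not tested. The precision is limited by the 3 libraries per group, and no smallest detectable change was computed.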
